A study of Homo sapiens with 9 samples.

Results

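The genes described here are 38 of the 58676 genes in the deposited count table: the chaperones and folding enzymes of the endoplasmic reticulum (ER), its degradation machinery, the sensors and transcription factors of the unfolded protein response, and the entry and exit gates of the secretory pathway. They were taken by gene name, and all 38 were found and had enough reads to be tested. In HaCaT keratinocytes given CDDO-Me, 7 of the 38 rose and 1 fell relative to DMSO, against 4.65% higher and 4.57% lower among all tested genes. A correction for GC content and gene length left 2 of these 8 calls, SSR1 and SEC24D, and added HERPUD1. The genes that rose act in protein entry into the ER (SSR1, SPCS3), exit and retrieval (SEC24D, KDELR3), chaperoning (DNAJC3, CANX) and degradation (SEL1L). The gene that fell was CALR, an abundant lumenal lectin chaperone. BiP (HSPA5), the chaperone that marks an unfolded protein response, did not pass the test for CDDO-Me, and with PRL-295 no member passed it. Without the first CDDO-Me library, which stood apart, BiP did pass (edgeR adjusted p = 0.0184). This was the only 1 of 9 fits leaving out a library in which BiP passed. A different count test, DESeq2, called CANX, PDIA3 and DERL1 higher with PRL-295, against 2.55% higher and 1.16% lower among all tested genes.

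HaCaT is an immortalised human keratinocyte line from skin. The groups were 250 nM CDDO-Me, 10 µM PRL-295 and 1% DMSO as the vehicle control, each given for 14 h and each with 3 libraries. CDDO-Me, also called bardoxolone methyl, is a reactive triterpenoid and a strong activator of NRF2, which turns on antioxidant genes. PRL-295 is a code name, and the study's title is about non-electrophilic NRF2 activators. Separate cultures are not stated for the 3 libraries of a group, so the p-values measure the spread between these samples, which may be technical.

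The ER folds and modifies proteins bound for membranes and secretion. When unfolded proteins accumulate there, BiP is drawn away from 3 membrane sensors, IRE1 (encoded by ERN1), PERK (EIF2AK3) and ATF6. IRE1 splices the mRNA of XBP1, PERK slows translation, and ATF6 is cut to release a transcription factor. ATF6 and spliced XBP1 raise chaperone and degradation genes through short promoter elements. Keratinocytes secrete matrix proteins and lipid-processing enzymes, and the unfolded protein response is active during their differentiation. Gene counts give the total XBP1 transcript and do not show its splicing, the cleavage of ATF6 or the activity of PERK.

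Libraries held 23383800 to 32942156 counted reads. The first CDDO-Me library stood apart: it had 14543 genes with at least 1 count, while the other 8 libraries had 17821 to 23271, and it was the lowest of its group in 25 of the 38 members. The second CDDO-Me library was the highest of its group in 24 of them. The members' median SD of log2 CPM was 0.26 in CDDO-Me, 0.12 in PRL-295 and 0.15 in DMSO, where CPM are counts-per-million scaled by the TMM method. All 10 keratinocyte markers were detected, with summed levels of 24481 to 29279 CPM in CDDO-Me, 16604 to 17864 CPM in PRL-295 and 19442 to 21767 CPM in DMSO libraries. Summed fibroblast markers reached at most 13.1 CPM in CDDO-Me, 7.63 CPM in PRL-295 and 11.4 CPM in DMSO, with 3 of 6 at 0 in every library, and the melanocyte, immune and endothelial lists each stayed at or under 4.66 CPM in every library. As a check of the compounds, 5 of 5 known NRF2 targets rose with CDDO-Me and 4 of 5 with PRL-295. Among all tested genes 4.65% rose with CDDO-Me and 0.462% with PRL-295. HMOX1, heme oxygenase 1, averaged 362 ± 9.49 CPM in CDDO-Me, 42.2 ± 4.82 CPM in PRL-295 and 11.1 ± 2.47 CPM in DMSO libraries (SD, n = 3 each).

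The members' promoters were read first, because the response elements of the unfolded protein response are short and well defined. Promoters of 34 members were matched in RefSeq (GRCh38.p14), as the 250 bases before the annotated start. PDIA3, DERL1, SEC24D and KDELR2 were not matched. Both strands were searched for the ER stress response element ERSE (CCAAT and CCACG with 9 bases between them), its variant ERSE-II (ATTGG and CCACG with 1 base between them), the unfolded protein response element UPRE (TGACGTGG), the antioxidant response element ARE (TGACNNNGC) and the CCAAT box. ERSE was present in 6 of 34 member promoters (17.6%), in HSPA5, HSP90B1, CRELD2, CALR, CANX and XBP1, and in 22 of all 27305 promoters (0.0806%). ERSE-II was present in HYOU1, SDF2L1 and HERPUD1, which was 8.82% of member promoters, against 0.0513% of all. UPRE was present in HYOU1 and KDELR3, which was 5.88% of member promoters, against 0.667% of all. ARE letters were found in 6 members (17.6%), against 11.0% of all promoters, and the CCAAT box in 27 members (79.4%), against 33% of all. Every ERSE holds a CCAAT box, the ARE match of KDELR3 overlaps its UPRE, and an ERSE-II of HYOU1 overlaps its UPRE. These matches are descriptions of letters, not of bound sites.

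The promoters below belong to genes on which the results turn: BiP and HERPUD1 as standard targets of the response, the lectin pair CALR and CANX, which share an element and moved in opposite directions, and KDELR3, which rose. Capitals mark the ERSE, ERSE-II or UPRE match, and each sequence runs 5′ to 3′ on the gene's strand, ending at the base before the RefSeq start. They lie at chr9:125241344-125241593 on the minus strand (HSPA5), chr16:56931892-56932141 (HERPUD1), chr19:12938359-12938608 (CALR), chr5:179698679-179698928 (CANX) and chr22:38467846-38468095 (KDELR3), the last 4 on the plus strand. The CANX promoter lies inside the deposited CANX gene, which starts at chr5:179678628, so its RefSeq start differs from the deposited one. The other promoters shown lie at or next to the deposited starts.
HSPA5: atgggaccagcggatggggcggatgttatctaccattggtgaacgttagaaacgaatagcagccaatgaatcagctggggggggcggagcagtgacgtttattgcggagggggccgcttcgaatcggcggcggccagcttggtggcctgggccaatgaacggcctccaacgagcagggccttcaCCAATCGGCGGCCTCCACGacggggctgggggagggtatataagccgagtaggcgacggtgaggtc
HERPUD1: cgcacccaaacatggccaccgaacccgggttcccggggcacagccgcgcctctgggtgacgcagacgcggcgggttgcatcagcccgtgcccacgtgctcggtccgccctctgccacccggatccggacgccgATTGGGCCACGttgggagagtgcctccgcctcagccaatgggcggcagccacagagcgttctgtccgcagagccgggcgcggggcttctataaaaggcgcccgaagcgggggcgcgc
CALR: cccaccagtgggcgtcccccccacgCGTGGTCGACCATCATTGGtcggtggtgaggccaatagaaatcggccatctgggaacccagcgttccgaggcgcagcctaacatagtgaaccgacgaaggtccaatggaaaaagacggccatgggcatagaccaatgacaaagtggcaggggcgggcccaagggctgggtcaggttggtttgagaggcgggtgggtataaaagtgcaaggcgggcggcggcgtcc
CANX: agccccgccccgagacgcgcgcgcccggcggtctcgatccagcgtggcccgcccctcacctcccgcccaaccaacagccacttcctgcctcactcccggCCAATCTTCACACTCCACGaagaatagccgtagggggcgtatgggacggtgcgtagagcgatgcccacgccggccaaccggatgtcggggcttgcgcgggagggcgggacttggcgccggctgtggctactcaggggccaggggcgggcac
KDELR3: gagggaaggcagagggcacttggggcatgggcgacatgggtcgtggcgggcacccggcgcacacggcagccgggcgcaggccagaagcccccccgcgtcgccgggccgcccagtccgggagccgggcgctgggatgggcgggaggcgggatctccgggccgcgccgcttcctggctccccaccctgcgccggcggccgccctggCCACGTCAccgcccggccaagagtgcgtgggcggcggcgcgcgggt

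The ERSE of HSPA5 lay at -66 to -48 from the start and that of CANX at -151 to -133, both on the gene's strand. In CALR the element lay farther out, at -225 to -207, on the opposite strand. Of the 6 members with an ERSE, 1 rose and 1 fell with CDDO-Me and their median log2 fold change was 0.34. Of the 28 matched members without an ERSE, 5 rose and 0 fell, with a median of 0.22. These 28 include HYOU1, SDF2L1, HERPUD1 and KDELR3, which hold an ERSE-II or a UPRE. Of the 10 members with an ERSE, ERSE-II or UPRE, 2 rose and 1 fell, with a median of 0.34. Among all tested genes 4.65% rose and 4.57% fell.

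Levels between members were compared as FPKM, the deposited measure, which divides reads by gene length and library total. In DMSO libraries CALR had a mean of 317 FPKM and HSPA5 of 263 FPKM, at percentiles 99.4 and 99.3 of all tested genes. The translocon channel SEC61A1 had 127 FPKM, and the disulfide isomerases PDIA4 and P4HB had 111 and 106 FPKM. At the low end were the sensors EIF2AK3 with 1.29 FPKM and ERN1 with 1.77 FPKM, and the cochaperone DNAJB9 with 1.61 FPKM. Of the 7 genes that rose with CDDO-Me, only CANX, with 93.0 FPKM in DMSO, was among the 8 most abundant members over all 9 libraries. SSR1 (2.87 FPKM), SEC24D (2.66 FPKM) and SPCS3 (1.88 FPKM) were among the 7 least abundant.

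**Figure D1:**
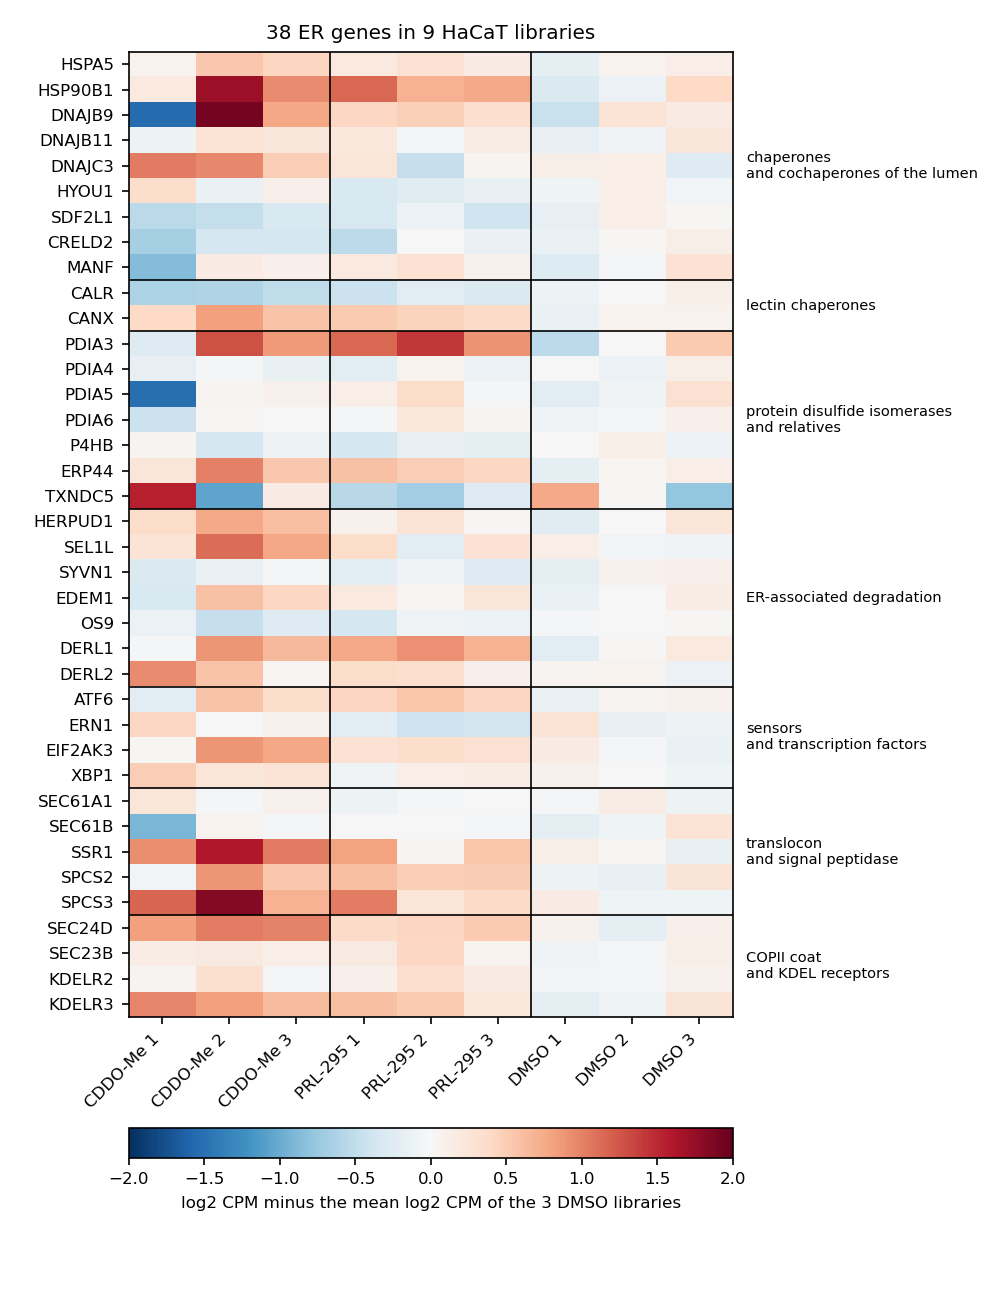
Log2 CPM of each of the 38 members in each library, minus the mean of the 3 DMSO libraries, with members grouped by role and libraries as columns (CDDO-Me 1 to 3, PRL-295 1 to 3, DMSO 1 to 3). Red marks values above and blue values below the DMSO mean; SSR1, SPCS3, SEC24D and KDELR3 are red in all 3 CDDO-Me libraries, CALR is blue in all 3, and CDDO-Me 1 is blue for DNAJB9, PDIA5 and SEC61B.

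The first comparison asked what CDDO-Me does to these genes relative to DMSO. Counts were tested with edgeR's quasi-likelihood test in 1 fit of all 9 libraries, with Benjamini-Hochberg adjustment over 16239 tested genes and a threshold of 0.05. All adjusted p-values below are from this test unless another tool is named, and gene coordinates are the deposited ones (hg38). Of the 38 members, 7 were higher and 1 was lower in CDDO-Me, while over all tested genes 9.22% were called, 4.65% higher and 4.57% lower. The members' median log2 fold change was 0.31, with 27 above and 11 below 0, and that of all tested genes was 0.01. With the GC and length correction described below the members' median was 0.17, and the sign changed for 7 of them. Groups did not overlap for 11 members with CDDO-Me above DMSO and for 4 with CDDO-Me below, against 15.5% and 16.3% of all tested genes. At an unadjusted p under 0.05 there were 20 members, against 26.0% of all tested genes. DESeq2 called 12 members, 10 higher and 2 lower, against 8.44% and 7.67% of all tested genes.

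These counts moved with single libraries. Without CDDO-Me 1 there were 18 calls, 17 higher and 1 lower, among them all 8 of the full set, and 9.08% of all tested genes were then higher and 7.43% lower. Without CDDO-Me 2, DMSO 1 or DMSO 2 there were 3 calls each, and without DMSO 3 there were 4. Calls over all tested genes fell too, from 755 higher and 742 lower with all libraries. They were 312 and 317 of 16945 genes without CDDO-Me 2, and 224 and 253 of 16947 without DMSO 1. Without DMSO 2 they were 197 and 203 of 16868, and without DMSO 3 they were 307 and 321 of 16969. SSR1, SEC24D and CALR were called in each of the 9 fits that left out a library.

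Protein entry into the ER was represented by 5 members, of which 2 rose and 0 fell, against 4.65% and 4.57% of all tested genes. SSR1 (ENSG00000124783, chr6:7268306-7347446, minus strand) is the alpha subunit of the translocon-associated protein complex, which helps nascent chains into the ER. It had 61.7, 97.7 and 66.1 CPM in CDDO-Me libraries, 56.3, 33.5 and 47.5 CPM in PRL-295 libraries and 34.9, 33.1 and 29.2 CPM in DMSO libraries. Every CDDO-Me library was above every other library. SSR1 rose 2.32-fold with CDDO-Me (log2 fold change 1.21, 95% interval 0.73 to 1.70, adjusted p = 0.00862).

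SPCS3 (ENSG00000129128, chr4:176319964-176332245, plus strand) encodes a subunit of signal peptidase, which removes signal sequences in the ER. It had 28.5, 45.6 and 20.6 CPM in CDDO-Me libraries, 25.8, 15.0 and 16.5 CPM in PRL-295 libraries and 14.3, 12.0 and 12.0 CPM in DMSO libraries. All CDDO-Me libraries lay above the DMSO libraries, with a wide spread and some overlap with PRL-295. SPCS3 rose 2.47-fold (log2 fold change 1.31, interval 0.66 to 1.96, adjusted p = 0.0225), the largest change among the members. Its adjusted p was 0.0695 without CDDO-Me 2, 0.0723 without DMSO 1, 0.0996 without DMSO 2 and 0.0818 without DMSO 3. The channel subunits SEC61A1 and SEC61B and the peptidase subunit SPCS2 did not pass the test, with log2 fold changes of 0.10, -0.24 and 0.49. SPCS2 had 0.71 without CDDO-Me 1 (adjusted p = 0.0115) and 0.03 with the GC and length correction.

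Exit from and retrieval to the ER was represented by 4 members, of which 2 rose and 0 fell. Over all tested genes 4.65% rose and 4.57% fell. SEC24D (ENSG00000150961, chr4:118722823-118838683, minus strand) is a cargo-selecting subunit of the COPII coat, which forms transport vesicles at the ER. It had 46.3, 53.4 and 51.9 CPM in CDDO-Me libraries, 34.1, 35.1 and 37.7 CPM in PRL-295 libraries and 27.8, 22.8 and 28.2 CPM in DMSO libraries. The 3 groups did not overlap, and the order was CDDO-Me, PRL-295, DMSO from high to low. SEC24D rose 1.92-fold with CDDO-Me (log2 fold change 0.94, interval 0.63 to 1.26, adjusted p = 0.00332), the smallest adjusted p among the members.

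KDELR3 (ENSG00000100196, chr22:38468062-38483447, plus strand) is a receptor that returns escaped ER proteins carrying a KDEL-type tail from the Golgi. It had 20.3, 18.2 and 15.9 CPM in CDDO-Me libraries, 15.6, 14.7 and 11.9 CPM in PRL-295 libraries and 9.08, 9.68 and 12.3 CPM in DMSO libraries. CDDO-Me libraries were above the others, and PRL-295 and DMSO libraries overlapped. KDELR3 rose 1.75-fold (log2 fold change 0.81, interval 0.37 to 1.25, adjusted p = 0.0322). The adjusted p ran from 0.0501 to 0.13 in 6 of the 9 fits that left out a library: CDDO-Me 2 (0.0981), CDDO-Me 3 (0.0501), DMSO 1 (0.129), DMSO 2 (0.13), DMSO 3 (0.0501) or PRL-295 3 (0.0658). KDELR3 overlaps DDX17 on the opposite strand, which had 410, 346 and 295 mean CPM in CDDO-Me, PRL-295 and DMSO. How the counting used strand is not given in the sources used here, so reads of this pair cannot be told apart. SEC23B and KDELR2 did not pass the test, with log2 fold changes of 0.15 and 0.13.

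**Figure D2:**
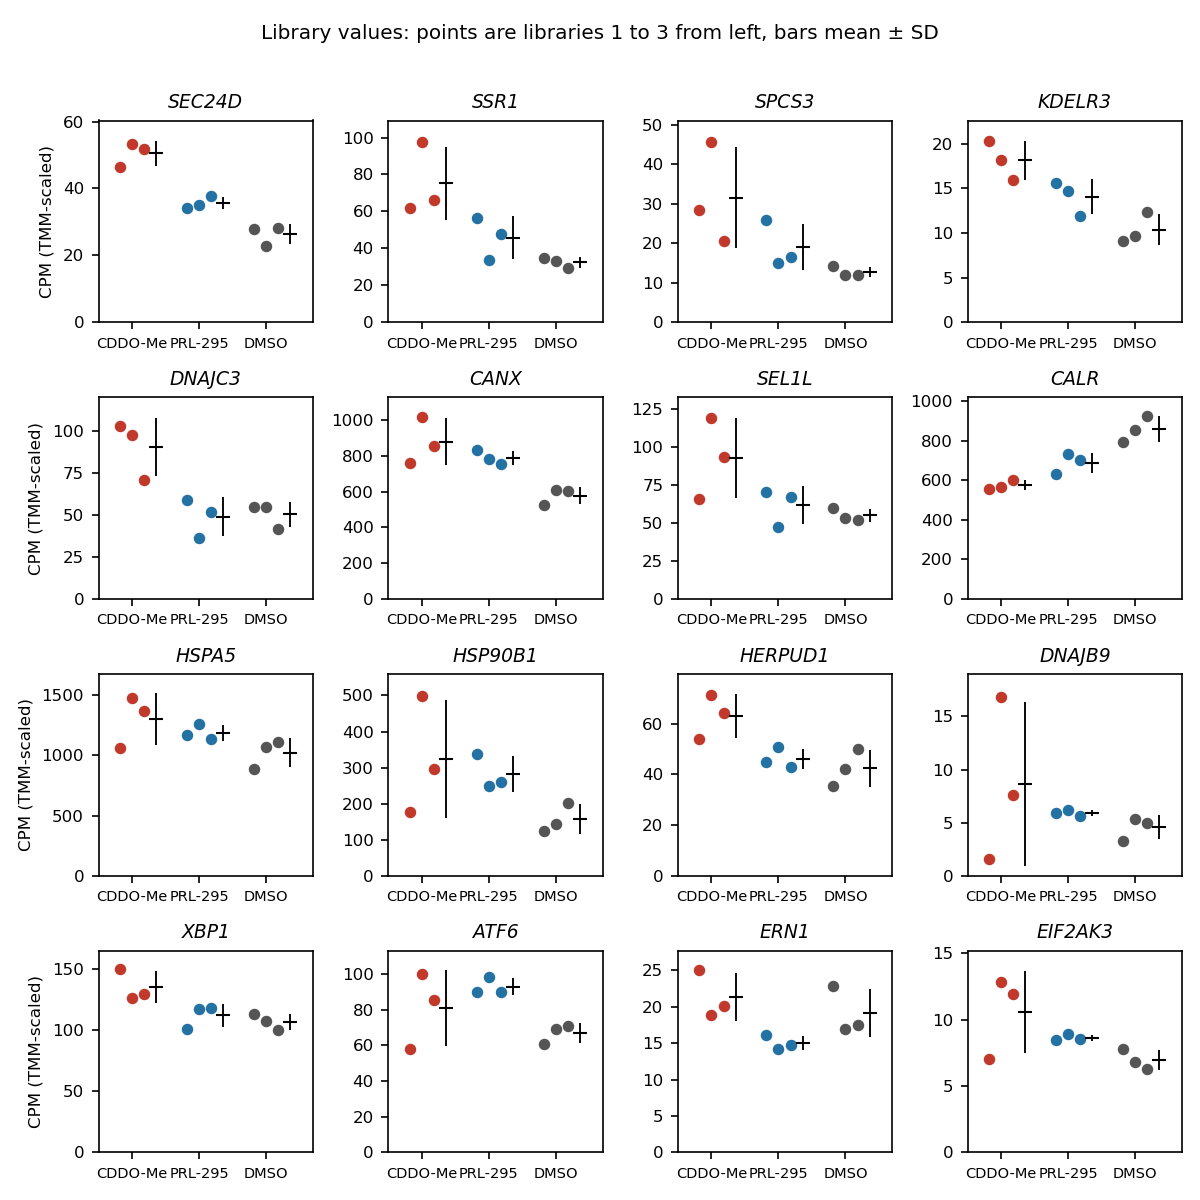
TMM-scaled CPM of 16 members in each library, with points for libraries 1 to 3 from left to right within CDDO-Me, PRL-295 and DMSO and black bars for mean ± SD (n = 3 each). The top 8 panels are the members that passed the test for CDDO-Me against DMSO; in SEC24D the 3 groups are separate, and in DNAJB9 the CDDO-Me libraries run from 1.53 to 16.8 CPM.

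The lectin chaperones CALR and CANX, which hold glycoproteins in a shared folding cycle, moved apart. CALR (ENSG00000179218, chr19:12938578-12944489, plus strand) is the soluble partner. It had 554, 566 and 602 CPM in CDDO-Me libraries, 632, 730 and 702 CPM in PRL-295 libraries and 795, 852 and 925 CPM in DMSO libraries. The 3 groups did not overlap, with CDDO-Me lowest and DMSO highest. CALR fell by 0.58 on the log2 scale with CDDO-Me (interval -0.80 to -0.36, adjusted p = 0.0062), to 0.669 of its DMSO level. CANX (ENSG00000127022, chr5:179678628-179730925, plus strand) is the membrane-bound partner. It had 762, 1019 and 857 CPM in CDDO-Me libraries, 831, 781 and 752 CPM in PRL-295 libraries and 525, 606 and 602 CPM in DMSO libraries. Both compound groups lay above every DMSO library and overlapped each other. CANX rose 1.52-fold with CDDO-Me (log2 fold change 0.61, interval 0.35 to 0.87, adjusted p = 0.0119). The CANX adjusted p was 0.0524 without CDDO-Me 2, 0.0659 without DMSO 1 and 0.0514 without DMSO 2. With the GC and length correction described below, neither gene passed the test. CALR then had -0.30 (adjusted p = 0.0968) and CANX 0.28 (adjusted p = 0.236).

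Among 9 lumenal chaperones and cochaperones, 1 rose and 0 fell, against 4.65% and 4.57% of all tested genes. DNAJC3 (ENSG00000102580, chr13:95677139-95794989, plus strand) is the J-domain cochaperone p58IPK, which binds unfolded proteins and hands them to BiP. It had 103, 97.4 and 70.7 CPM in CDDO-Me libraries, 59.1, 36.4 and 51.7 CPM in PRL-295 libraries and 54.5, 54.8 and 41.9 CPM in DMSO libraries. CDDO-Me libraries were above all others, and PRL-295 and DMSO libraries overlapped. DNAJC3 rose 1.79-fold (log2 fold change 0.84, interval 0.39 to 1.29, adjusted p = 0.0296). Its adjusted p was 0.0754 without CDDO-Me 2, 0.0845 without DMSO 1, 0.0872 without DMSO 2 and 0.109 without DMSO 3.

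BiP itself, HSPA5 (ENSG00000044574, chr9:125234853-125241330, minus strand), had 1062, 1481 and 1369 CPM in CDDO-Me libraries, 1168, 1260 and 1134 CPM in PRL-295 libraries and 885, 1067 and 1114 CPM in DMSO libraries. The lowest CDDO-Me library, CDDO-Me 1, lay within the DMSO range. BiP had a log2 fold change of 0.35 (interval 0.06 to 0.65, adjusted p = 0.125). Without CDDO-Me 1 it was 0.48, with adjusted p = 0.0184. Over the 9 fits that left out a library it ran from 0.23 to 0.48. Only 1 of these fits called BiP, with adjusted p from 0.0184 to 0.42.

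HSP90B1 (GRP94), the HSP90 of the ER, had 176, 499 and 295 CPM in CDDO-Me libraries, 338, 248 and 259 CPM in PRL-295 libraries and 125, 142 and 203 CPM in DMSO libraries. CDDO-Me 1 again lay within the DMSO range, while all PRL-295 libraries were above it. The log2 fold change for CDDO-Me was 1.05 (interval 0.35 to 1.74, adjusted p = 0.0621), and without CDDO-Me 1 it was 1.34 (adjusted p = 0.00497). Over the 9 fits that left out a library it ran from 0.57 to 1.34. Only 1 of these fits called HSP90B1, with adjusted p from 0.00497 to 0.219. DESeq2 on all libraries called HSP90B1 higher.

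DNAJB9 (ERdj4), a cochaperone that brings BiP to IRE1, had 1.53, 16.8 and 7.58 CPM in CDDO-Me libraries, 5.95, 6.21 and 5.63 CPM in PRL-295 libraries and 3.28, 5.38 and 5 CPM in DMSO libraries. CDDO-Me 1 held the lowest value of all 9 libraries and CDDO-Me 2 the highest. For CDDO-Me this gave a log2 fold change of 0.92 (interval -0.41 to 2.25, adjusted p = 0.367). It was 1.42 without CDDO-Me 1 (adjusted p = 0.0161) and -0.03 without CDDO-Me 2 (adjusted p = 0.983). DNAJB9 overlaps PNPLA8 on the opposite strand, which had mean levels of 15.5, 9.20 and 5.37 CPM in CDDO-Me, PRL-295 and DMSO, and its part in the DNAJB9 count was not tested.

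The other 5 lumenal members did not pass the test. Their log2 fold changes were 0.13 for DNAJB11 and 0.12 for HYOU1, the nucleotide exchange factor of BiP, -0.15 for MANF, -0.44 for SDF2L1 and -0.45 for CRELD2. SDF2L1, a partner of the ER J-domain proteins, had every CDDO-Me library below every DMSO library, with adjusted p = 0.0511. Its adjusted p was 0.0385 without PRL-295 2. DESeq2 called SDF2L1 lower, and so did limma on log2(FPKM + 1) and on log2(FPKM + 0.1). With the GC and length correction the signs of DNAJB11 (-0.38), MANF (0.06) and SDF2L1 (0.04) changed. Over all tested genes 9.22% passed the edgeR test and 26.0% had an unadjusted p under 0.05. Among the 7 disulfide isomerases and relatives, 0 passed the test in edgeR and 1 had an unadjusted p under 0.05. DESeq2 called 1 of these 7 higher, against 8.44% of all tested genes. It was ERP44, a thioredoxin-like protein that retains clients in the early secretory pathway. In edgeR the log2 fold change of ERP44 was 0.62 (adjusted p = 0.0511), with adjusted p = 0.0498 without PRL-295 2. Without CDDO-Me 1 edgeR called ERP44 (0.79, adjusted p = 0.00716) and PDIA3 (1.02, adjusted p = 0.0219). With the GC and length correction ERP44 had 0.15 and PDIA3 0.47.

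Of 7 genes of ER-associated degradation, which sends misfolded proteins back to the cytosol, 1 rose and 0 fell. The shares of all tested genes were 4.65% and 4.57%. SEL1L (ENSG00000071537, chr14:81471549-81533861, minus strand) is the adaptor of the ubiquitin ligase SYVN1 (HRD1). It had 66.1, 119 and 93.7 CPM in CDDO-Me libraries, 70.7, 47.2 and 67.2 CPM in PRL-295 libraries and 59.9, 53.0 and 52.0 CPM in DMSO libraries. All CDDO-Me libraries were above the DMSO libraries, and CDDO-Me 1 overlapped PRL-295. SEL1L rose 1.69-fold (log2 fold change 0.76, interval 0.29 to 1.23, adjusted p = 0.049). The call was held by 2 of the 9 fits that left out a library. The adjusted p was 0.16 without CDDO-Me 2, 0.104 without CDDO-Me 3, 0.117 without DMSO 1, 0.166 without DMSO 2, 0.142 without DMSO 3, 0.0584 without PRL-295 1 and 0.0784 without PRL-295 3.

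HERPUD1 (HERP), a membrane organiser of the degradation complex, had 53.9, 71.3 and 64.0 CPM in CDDO-Me libraries, 44.8, 50.6 and 42.8 CPM in PRL-295 libraries and 35.3, 42.0 and 49.8 CPM in DMSO libraries. Every CDDO-Me library was above every other library. Its log2 fold change was 0.57 (interval 0.21 to 0.93), and the adjusted p of 0.0517 missed the threshold. It was 0.0192 without CDDO-Me 1 and 0.0444 without PRL-295 2, the only 2 of 9 fits leaving out a library that called HERPUD1. DESeq2 on all libraries called HERPUD1 higher. The ligase SYVN1 had a log2 fold change of -0.15, the mannosidase-like EDEM1 of 0.27, the lectin OS9 of -0.27, and the derlins DERL1 and DERL2, which form part of the exit channel, of 0.54 and 0.56. None of these 5 passed the test on all libraries. DERL1 had 0.77 without CDDO-Me 1 (adjusted p = 0.00775) and DERL2 had 0.77 without CDDO-Me 3 (adjusted p = 0.0333). DERL2 overlaps MIS12 on the opposite strand, which had mean levels of 32.6, 27.7 and 16 CPM in CDDO-Me, PRL-295 and DMSO. The part of MIS12 in the DERL2 count was not tested. With the GC and length correction SYVN1 had 0.10, EDEM1 0.11, OS9 -0.10, DERL1 0.25 and DERL2 0.19.

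The 4 sensors and transcription factors all had positive log2 fold changes with CDDO-Me, but ATF6 was at -0.13 with the GC and length correction described below, and 0 passed the edgeR test. For 2 of the 4 the unadjusted p was under 0.05, against 26.0% of all tested genes, and DESeq2 also called 0 of the 4. XBP1 had 150, 126 and 129 CPM in CDDO-Me libraries, 101, 117 and 118 CPM in PRL-295 libraries and 113, 107 and 99.8 CPM in DMSO libraries. CDDO-Me libraries were above all others, and the log2 fold change was 0.34 (interval 0.09 to 0.59, adjusted p = 0.0896).

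ATF6 had 58.0, 99.8 and 85.6 CPM in CDDO-Me libraries, 90.1, 98.3 and 89.8 CPM in PRL-295 libraries and 60.8, 69.3 and 71.0 CPM in DMSO libraries. CDDO-Me 1 was the lowest of the 9 libraries, and PRL-295 libraries were all above DMSO. For CDDO-Me the log2 fold change was 0.27 (adjusted p = 0.355), and without CDDO-Me 1 it was 0.47 (adjusted p = 0.0278). Over the 9 fits that left out a library it ran from 0.08 to 0.47. Only 1 of these fits called ATF6, with adjusted p from 0.0278 to 0.846.

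EIF2AK3 (PERK) had 7.04, 12.8 and 11.9 CPM in CDDO-Me libraries, 8.45, 8.88 and 8.55 CPM in PRL-295 libraries and 7.78, 6.79 and 6.31 CPM in DMSO libraries. CDDO-Me 1 lay within the DMSO range and the other 2 CDDO-Me libraries above it. With all libraries its log2 fold change was 0.61 (adjusted p = 0.156), and 0.83 without CDDO-Me 1 (adjusted p = 0.0173). Over the 9 fits that left out a library it ran from 0.42 to 0.83. Only 1 of these fits called EIF2AK3, with adjusted p from 0.0173 to 0.437. ERN1 (IRE1) had 25.1, 18.9 and 20.1 CPM in CDDO-Me libraries, 16.1, 14.2 and 14.7 CPM in PRL-295 libraries and 22.9, 16.9 and 17.5 CPM in DMSO libraries. CDDO-Me and DMSO libraries overlapped, and every PRL-295 library was the lower. The ERN1 log2 fold change for CDDO-Me was 0.16 (adjusted p = 0.631).

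**Figure D3:**
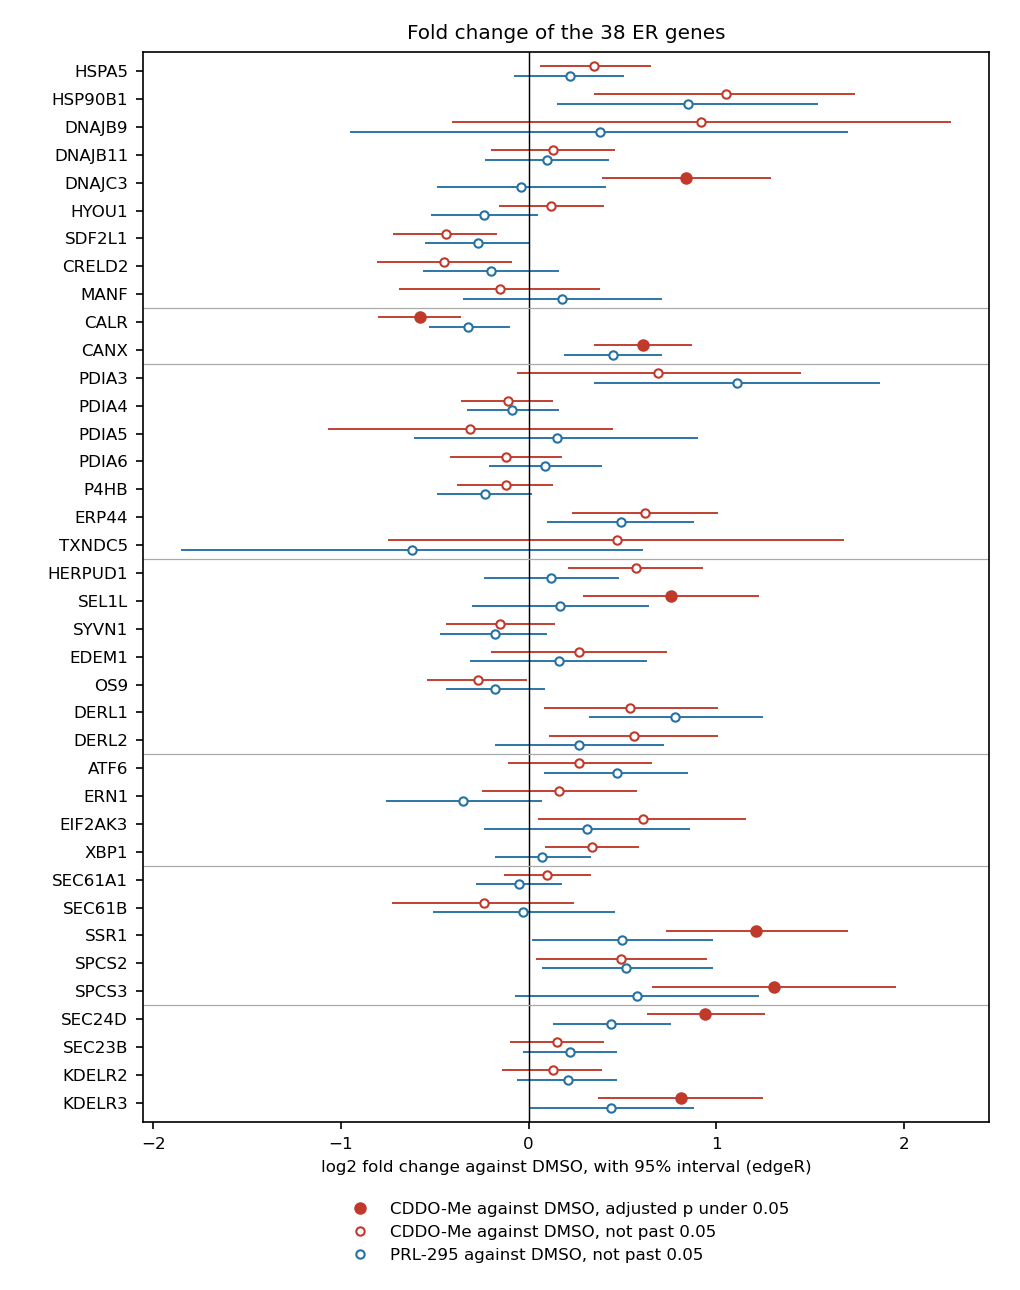
Log2 fold change of each member with its 95% interval from edgeR, for CDDO-Me against DMSO (red) above PRL-295 against DMSO (blue), with members ordered by role. Filled points passed the adjusted p threshold of 0.05; these are 7 CDDO-Me points right of 0 and CALR left of 0, and no PRL-295 point is filled.

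Base composition moved with this comparison. Over all tested genes, those higher in CDDO-Me had a median GC content of 42.4% in their longest transcript, those lower had 57.2%, and all tested genes had 49.2%. The 7 members that rose had a median of 40.6% (35.8% to 45.5%), CALR had 53.9%, and the 30 members not called had 46.1%. Libraries differed in this respect: across 13123 genes, the difference between a library's log2 CPM and its 9-library mean had a correlation with GC content of 0.00226, -0.643 and -0.219 in CDDO-Me libraries 1 to 3, -0.464, 0.313 and -0.147 in PRL-295 libraries 1 to 3, and 0.357, 0.310 and 0.337 in DMSO libraries 1 to 3. These genes share a library and are not independent, and GC trend and treatment cannot be told apart.

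When each library was corrected for GC content and gene length, 3 members were called higher with CDDO-Me and 0 lower, against 3.78% and 2.20% of all tested genes. They were SSR1 (log2 fold change 0.74, adjusted p = 0.00374), SEC24D (0.77, adjusted p = 0.00531) and HERPUD1 (0.60, adjusted p = 0.0198). The calls of SPCS3 (0.63, adjusted p = 0.128), KDELR3 (0.89, adjusted p = 0.065), DNAJC3 (0.49, adjusted p = 0.251), CANX (0.28, adjusted p = 0.236), SEL1L (0.22, adjusted p = 0.338) and CALR (-0.30, adjusted p = 0.0968) were lost. The correction gave 614 higher and 358 lower calls over all tested genes, against 755 and 742 without it. The same correction without CDDO-Me 1 gave 6 calls: HSPA5, HSP90B1, HERPUD1, SSR1 and SEC24D were higher and CALR was lower, against 4.74% and 5.16% of all tested genes. SSR1 and SEC24D were called in all fits of this comparison, with and without the correction and each library.

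**Figure D4:**
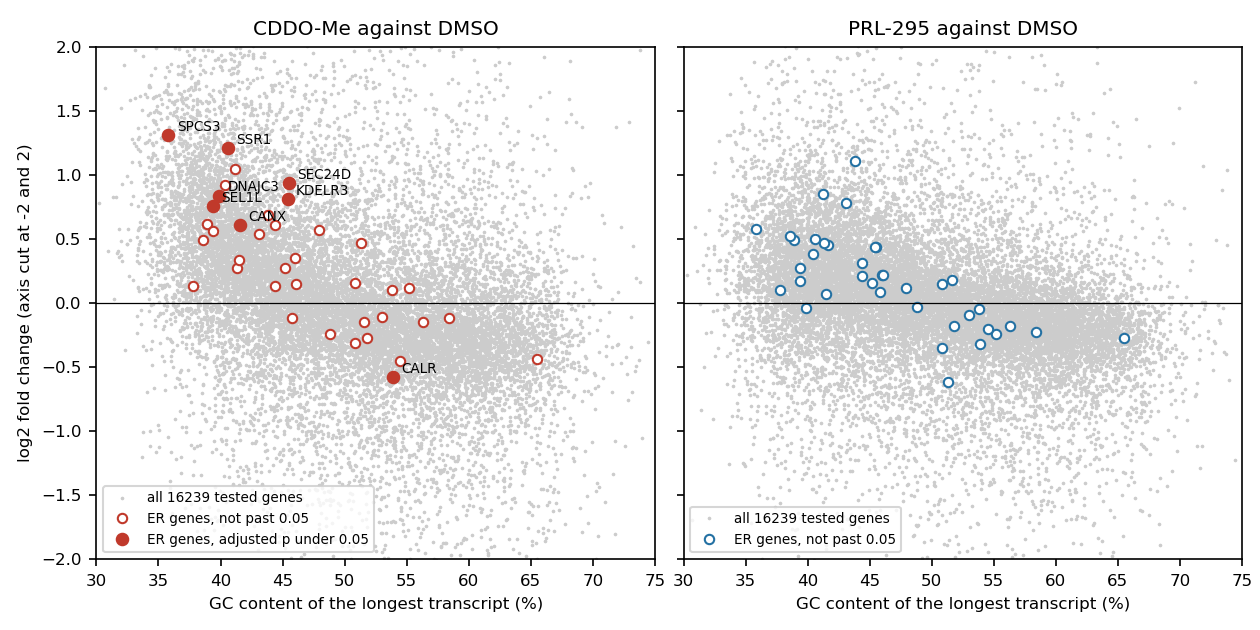
Log2 fold change against the GC content of each gene's longest transcript, for CDDO-Me against DMSO (left) and PRL-295 against DMSO (right), with all 16239 tested genes in grey and the members as circles, filled where adjusted p was under 0.05. The axis ends at -2 and 2. The 7 members that rose lie between 35.8% and 45.5% GC and CALR at 53.9%, and no trend line is drawn.

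The second comparison asked the same of PRL-295. Of the 38 members 0 passed the edgeR test in either direction, while 0.684% of all tested genes did, 0.462% higher and 0.222% lower. At an unadjusted p under 0.05 there were 11 members, against 12.9% of all tested genes, and DESeq2 called 3 members (CANX, PDIA3 and DERL1, all higher), against 2.55% of genes higher and 1.16% lower. The members' log2 fold changes ran from -0.62 to 1.11 with a median of 0.16, which was 0.01 with the GC and length correction, and the median of all tested genes was -0.01. PRL-295 lay above DMSO without overlap for 14 members and below for 5, against 13.5% and 13.7% of all tested genes. Without CDDO-Me 1, where 16978 genes were tested, 4 members were called higher, which were CANX, PDIA3, DERL1 and ATF6, against 2.53% of genes higher and 0.937% lower, and the cause was not tested.

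PDIA3 (ERp57), the disulfide isomerase that works with the lectin chaperones, had the largest fold change with PRL-295 and is named for that. It had 148, 427 and 319 CPM in CDDO-Me libraries, 391, 472 and 328 CPM in PRL-295 libraries and 122, 177 and 253 CPM in DMSO libraries. All PRL-295 libraries were above the DMSO libraries, with CDDO-Me 1 among the DMSO values. The log2 fold change for PRL-295 was 1.11 (interval 0.35 to 1.87, adjusted p = 0.2). A processed pseudogene of PDIA3, PDIA3P1, had mean levels of 6.53, 3.13 and 3.39 CPM in CDDO-Me, PRL-295 and DMSO, and reads shared with it could not be separated here.

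The members called with CDDO-Me had the following PRL-295 values against the same DMSO libraries. The log2 fold change was 0.45 for CANX (interval 0.19 to 0.71, adjusted p = 0.132), -0.32 for CALR (interval -0.53 to -0.10, adjusted p = 0.198), 0.50 for SSR1 (interval 0.02 to 0.98, adjusted p = 0.369) and 0.44 for SEC24D (interval 0.13 to 0.76, adjusted p = 0.219). In DNAJC3 it was -0.04 (interval -0.49 to 0.41, adjusted p = 0.971). SPCS3 had 0.58, KDELR3 0.44 and SEL1L 0.17. DERL1 had 0.78 (interval 0.32 to 1.25, adjusted p = 0.138) and HSP90B1 0.85 (interval 0.15 to 1.54, adjusted p = 0.28). Both comparisons use the same DMSO libraries, so their values are not independent.

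The direct comparison set PRL-295 against CDDO-Me, at the doses given, 10 µM and 250 nM. Since the doses differ, it compares these treatments and not the compounds at a matched dose. Of the 38 members 0 passed the edgeR test, while 1.59% of all tested genes did, 0.905% higher and 0.684% lower. At an unadjusted p under 0.05 there were 10 members, against 17.2% of all tested genes, and DESeq2 called 3 members lower in PRL-295 (DNAJC3, SSR1 and SEC24D), against 3.57% of genes higher and 2.93% lower. PRL-295 lay above CDDO-Me without overlap for 1 member and below for 8, against 14.4% and 10.2% of all tested genes. The smallest adjusted p was that of DNAJC3, with a log2 fold change of -0.88 (interval -1.33 to -0.43, adjusted p = 0.0607). For SEC24D it was -0.50 (interval -0.82 to -0.19, adjusted p = 0.109) and for SSR1 -0.71 (interval -1.19 to -0.23, adjusted p = 0.13). For HSPA5 it was -0.14 (interval -0.43 to 0.16, adjusted p = 0.66), so neither sign was excluded by the interval. CALR had 0.26 (interval 0.05 to 0.48, adjusted p = 0.204). Across the 3 groups, the edgeR F test passed for 5 members, against 5.68% of all tested genes: SEC24D (adjusted p = 0.0095), CALR (0.0173), SSR1 (0.0214), CANX (0.0291) and DNAJC3 (0.0344). That count was 16 without CDDO-Me 1, 3 without CDDO-Me 2, 2 without DMSO 1, 0 without DMSO 2, 1 without DMSO 3 and 2 without PRL-295 3. Without DMSO 2, the unadjusted p of the F test was under 0.05 for 11 members, and DESeq2 on all libraries called 14. For these other fits the share of all tested genes was not computed. Their counts therefore cannot be told apart from shifts over all genes.

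Other genes of the same machinery were followed in lists chosen by function: 102 genes, of which 99 were tested. With CDDO-Me 13 rose and 0 fell, against 4.65% and 4.57% of all tested genes. With PRL-295 1 rose and 0 fell, against 0.462% and 0.222%. In the direct comparison 0 were higher and 1 was lower in PRL-295, against 0.905% and 0.684%. Their median log2 fold change was 0.17 with CDDO-Me and 0.11 with PRL-295.

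Entry into the ER showed 4 rises of 21 tested genes with CDDO-Me, against 4.65% of all tested genes. SEC63, the translocon partner that recruits BiP, averaged 61.3 ± 18.5 CPM in CDDO-Me, 40.6 ± 17.9 CPM in PRL-295 and 21.5 ± 3.83 CPM in DMSO (log2 fold change for CDDO-Me 1.51, adjusted p = 0.0147). STT3B, a catalytic subunit of the oligosaccharyltransferase, averaged 79.3 ± 20.5, 56.2 ± 9.60 and 42.6 ± 7.73 CPM in the same order (0.90, adjusted p = 0.0245). SSR3, another subunit of the SSR1 complex, had 0.80 (adjusted p = 0.0119). Among 17 COPII and retrieval genes 4 rose, including the cargo receptor TMED2 (1.04, adjusted p = 0.0133) and the coat subunits SEC24B (0.92, adjusted p = 0.0445) and SEC24A (0.88, adjusted p = 0.0219). With the GC and length correction SEC63 (0.99, adjusted p = 0.00495) and SEC24B (0.68, adjusted p = 0.0383) passed the test, and STT3B, SSR3, TMED2 and SEC24A did not (adjusted p from 0.0683 to 0.353).

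Among 19 tested lumenal chaperones and redox enzymes 2 rose with CDDO-Me: the disulfide reductase DNAJC10 (1.03, adjusted p = 0.0336) and the calcium-binding CALU (0.65, adjusted p = 0.0302). Of 21 tested degradation genes 1 rose, the lectin ERLEC1 (0.89, adjusted p = 0.0409). With the correction DNAJC10, CALU and ERLEC1 had adjusted p of 0.18, 0.206 and 0.121. Without the correction, 4.65% of all tested genes rose with CDDO-Me.

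CREB3L2 is a membrane-bound transcription factor related to ATF6 that raises secretory pathway genes. It was the 1 of 11 stress factors and proteases to rise with CDDO-Me, against 4.65% of all tested genes. It averaged 55.0 ± 4.10 CPM in CDDO-Me, 26.5 ± 2.48 CPM in PRL-295 and 27.8 ± 1.19 CPM in DMSO libraries (SD, n = 3 each). CDDO-Me lay well above both other groups, with a log2 fold change of 0.98 (adjusted p = 0.00216) against DMSO and 0.96 (adjusted p = 0.00144) with the correction. It was also lower in PRL-295 than in CDDO-Me, with a log2 fold change of -1.05 (adjusted p = 0.00497), which had an adjusted p of 0.0532 without PRL-295 3.

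In the PERK and ATF4 arm, 1 of 10 genes rose with CDDO-Me and the same gene, EIF2S1, rose with PRL-295. Among all tested genes 4.65% rose with CDDO-Me and 0.462% with PRL-295. EIF2S1 encodes the subunit of the translation factor eIF2 that PERK phosphorylates. It averaged 162 ± 41.7 CPM in CDDO-Me, 186 ± 25.8 CPM in PRL-295 and 91.3 ± 9.08 CPM in DMSO libraries. The log2 fold change was 0.83 for CDDO-Me (adjusted p = 0.0173) and 1.03 for PRL-295 (adjusted p = 0.03). With the GC and length correction the values were 0.36 (adjusted p = 0.364) for CDDO-Me and 0.86 (adjusted p = 0.0851) for PRL-295. Leaving out CDDO-Me 2, DMSO 1 or DMSO 2 ended the CDDO-Me call (adjusted p = 0.0687, 0.0881 and 0.0884). Leaving out any library other than CDDO-Me 1 and CDDO-Me 2 ended the PRL-295 call, with adjusted p from 0.0583 to 0.201.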

How the data were processed

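Total RNA was purified on Qiagen RNeasy Plus columns, per the labels' protocols. STAR 2.5 aligned the paired reads and HTSeq 0.6.1 made the gene counts, also per the labels. The genome build is hg38, per the submitters' processing notes. The annotation release and strand setting are not given in the sources used here. The deposited counts are raw whole-number reads per gene. The deposited FPKM equal the authors' counts divided by gene length and library total, for 100.0% of values within 0.1%.

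Counts were tested in R 4.3.3 with the edgeR 4.0.16 quasi-likelihood test (filterByExpr by group, TMM scaling, 1 coefficient per group, all 9 libraries), adjusted by Benjamini-Hochberg over 16239 genes. The test was checked on counts simulated from its own fit. These counts held no GC trend and no outlying library, so that check does not cover either. CPM are TMM-scaled and errors are SD with n = 3. With 23383800 to 32942156 reads per library, 3 counts equal 0.0911 to 0.128 CPM, which covers counting error only.

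The members and lists were chosen with earlier results of these data known, so no p adjusted over a list is given. Library-by-library values are given for every member called in any comparison and for HSPA5, HSP90B1, XBP1, ATF6, ERN1, EIF2AK3, DNAJB9 and HERPUD1. From the other lists, up to 3 called genes a list and comparison with the largest change are named, and HMOX1 stands for the NRF2 check. PDIA3 and other members outside this rule were named after their values were seen.

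Alternatives were DESeq2 1.42.0, RLE scaling, no filter, a minimum of 1 CPM in 3 libraries, limma 3.58.1 on log2(FPKM + 1) and log2(FPKM + 0.1), a replicate block, a spline correction for transcript GC content and gene length with and without the block, 6 libraries only, and leaving out each library. The correction without CDDO-Me 1 was added after the data were seen. Promoters and their build (GRCh38.p14) are from RefSeq.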

Additional observations from a re-analysis of the deposited data

How the results depend on the processing

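For CDDO-Me against DMSO, the 8 member calls became 15 with no filter on low counts, 3 with the GC and length correction and 3 with that correction and the replicate block, and ran from 3 to 18 when 1 library was left out. Over all tested genes 755 were called higher and 742 lower of 16239. These became 1676 and 833 of 29198 with no filter, 614 and 358 with the correction, and 522 and 293 with correction and block. For PRL-295 against DMSO, 0 calls became 3 with DESeq2, 6 with no filter, 6 with only the 6 libraries compared and 3 with the correction and no CDDO-Me 1, and ran from 0 to 4 over left-out libraries. Over all tested genes 75 were called higher and 36 lower of 16239, which became 414 and 189 with DESeq2. They were 658 and 167 of 29198 with no filter and 494 and 156 of 15386 with 6 libraries. With the correction and no CDDO-Me 1 they were 317 and 201 of 16978. For PRL-295 against CDDO-Me, 0 became 3 with DESeq2, 5 with no filter, 1 (HERPUD1) with the correction and 1 with the correction and no CDDO-Me 1, and stayed at 0 over left-out libraries. Over all tested genes 147 were called higher and 111 lower of 16239, which became 579 and 475 with DESeq2. They were 561 and 689 of 29198 with no filter and 149 and 205 with the correction. With the correction and no CDDO-Me 1 they were 282 and 218 of 16978. The F test's 5 members, against 5.68% of all tested genes, became 14 with DESeq2, 14 with no filter and 3 with either limma pseudocount. They became 2 with the replicate block, 3 with the correction and 3 with correction and block. With the correction and no CDDO-Me 1 there were 8, and over left-out libraries 0 to 16. For these other fits the F test's share of all tested genes was not computed. Their counts therefore cannot be told apart from shifts over all genes.

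With the correction the sign of the log2 fold change differed for 7 of 38 members with CDDO-Me, 5 of 38 with PRL-295 and 8 of 38 in PRL-295 against CDDO-Me. Those with CDDO-Me were DNAJB11, SDF2L1, MANF, PDIA4, P4HB, SYVN1 and ATF6, and those with PRL-295 were DNAJB11, PDIA6, XBP1, SEC61A1 and KDELR2. With the correction, with or without the block, ATF6 was -0.13 (log2) with CDDO-Me, and XBP1 with PRL-295 was -0.22, or -0.19 with the block. With the correction and no CDDO-Me 1, XBP1 was -0.25 and ATF6 -0.06 with CDDO-Me. Over left-out libraries, DNAJB9 with CDDO-Me ran from -0.03 to 1.42 and DNAJC3 with PRL-295 from -0.19 to 0.14. PRL-295 minus CDDO-Me ran from -0.26 to 0.01 for HSPA5, -0.49 to 0.30 for HSP90B1, -1.04 to 0.43 for DNAJB9 and -0.25 to 0.00 for CANX, each highest without CDDO-Me 2. The members' median with PRL-295 was 0.16 and 0.01 with the correction, and with CDDO-Me 0.31 and 0.17. The causes were not tested.

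Same-numbered libraries of different groups did not deviate together (correlations from -0.198 to 0.101 over 13123 genes). These deviations also carried GC trends, with correlations to GC content of -0.492 in PRL-295 1 and 0.470 in PRL-295 2. Such trends can mask a shared origin, so the check cannot decide whether the numbers pair the libraries. With the replicate block there were 6 CDDO-Me calls and 0 in each other comparison, and the CDDO-Me calls of SEL1L and KDELR3 were lost. The split of calls over all tested genes with CDDO-Me was 560 higher and 891 lower with limma on log2(FPKM + 1), against 755 and 742 in edgeR. With 3 libraries a group and a wide CDDO-Me spread, members that missed the threshold are not shown to be unchanged.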

Other observations

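The 38 members together took 0.65%, 0.799% and 0.733% of all counts in CDDO-Me libraries 1 to 3, 0.682%, 0.696% and 0.665% in PRL-295 libraries and 0.6%, 0.643% and 0.676% in DMSO libraries. CDDO-Me 2 was the highest and DMSO 1 the lowest of the 9, and CDDO-Me 1 lay within the DMSO range.

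ATF4, DDIT3 and CHAC1, picked from the PERK and ATF4 list after their values were seen, did not pass the test with either compound. They do not stand for the list of 10. With CDDO-Me its log2 fold changes were above 0 for 5 genes and below 0 for 5, from -0.49 to 0.83. With PRL-295 they were above 0 for 8 and below 0 for 2, from -0.08 to 1.03. ATF4, the factor whose translation rises when eIF2 is phosphorylated, averaged 247 ± 42.1 CPM in CDDO-Me, 347 ± 60.1 CPM in PRL-295 and 292 ± 46.2 CPM in DMSO libraries (SD, n = 3 each). Its log2 fold change was -0.24 for CDDO-Me (edgeR adjusted p = 0.408) and 0.25 for PRL-295 (edgeR adjusted p = 0.591). DDIT3 (CHOP), a death-promoting factor of the same arm, averaged 3.81 ± 1.12, 5.48 ± 0.424 and 5.34 ± 1.30 CPM in the same order, with log2 fold changes of -0.49 (edgeR adjusted p = 0.36) and 0.03 (edgeR adjusted p = 0.986). CHAC1, a glutathione-degrading ATF4 target, averaged 6.12 ± 2.74, 9.74 ± 1.27 and 7.54 ± 2.32 CPM, with -0.30 (edgeR adjusted p = 0.64) and 0.37 (edgeR adjusted p = 0.752).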
